A study of Mus musculus with 6 samples.

Results

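Src family kinases sit on the inner face of the plasma membrane and phosphorylate tyrosines of receptors, adaptors and adhesion proteins. Some of them are found mainly in blood cells, where they act next to antigen and Fc receptors, whereas others are made in most tissues and act at integrin adhesions, growth factor receptors and cell junctions. Their activity is set by a tyrosine near the carboxyl end. Csk phosphorylates this tyrosine and closes the kinase, and the phosphatase CD45, the product of *Ptprc*, removes the phosphate in leukocytes.

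The 9 genes described here are the leukocyte kinases *Lyn*, *Fgr*, *Lck* and *Blk*, the broadly expressed kinases *Src*, *Yes1* and *Fyn*, and the regulators *Csk* and *Ptprc*. They were found among the 26579 rows of the count table by matching Ensembl identifiers to GENCODE M21 (GRCm38), and all 9 had a row. The table holds raw read counts from RNA-Seq of dorsal neck skin of 3 YAP2-5SA-∆C transgenic mice (TG) and 3 wild type littermates (WT). All 6 mice were female, were 33 days old (P33) and received no treatment named in the labels, and each library is 1 mouse. YAP2-5SA-∆C is a truncated and activated form of the Hippo pathway effector YAP that these mice express in basal keratinocytes of the skin, and the TG mice were taken at the early onset of the visible phenotype. The RNA came from whole skin biopsies, so epidermis, hair follicles, dermis, fat, muscle and leukocytes were measured together. In such bulk RNA, a change in the number of cells of a type and a change in RNA per cell cannot be told apart.

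Libraries held between 11225705 and 19505036 counts. Read counts were scaled to CPM (counts relative to the library total), and genes reaching 1 CPM in 3 or more libraries were tested with edgeR's quasi-likelihood test, with Benjamini-Hochberg adjustment (FDR) over all 15102 genes tested and a threshold of 0.05. The CPM printed are relative to the counts on the tested genes and carry library factors from the trimmed mean of M values (TMM). Log2 fold changes are TG over WT with their standard error (SE). Of all genes tested, 1.91% passed the threshold, 1.44% as higher and 0.464% as lower in TG. That is 218 higher and 70 lower genes, but the split was 407 and 409 without TG replicate 2 and 833 and 735 by the likelihood-ratio test. The unadjusted quasi-likelihood p was under 0.05 in 3968 of the 15102 genes tested, so such a p alone says little about a gene here. The *Yap1* row had 131 ± 9.47 CPM in WT and 136 ± 7.32 CPM in TG (SD, n = 3), and whether transgene reads are counted there is not given in the sources used here. TG replicate 2 stood apart in its hair shaft keratins, with a summed level of 79.9 CPM against 717 CPM and 884 CPM in the other TG libraries and 1542 to 2765 CPM in WT.

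The coding ends of the kinases are shown because they carry the regulatory tyrosine that Csk and CD45 act on. Each line gives the last 14 codons, stop codon included, of a coding transcript of GENCODE M21, 5′ to 3′ on the coding strand, with the last tyrosine codon of the protein in capitals.
Lyn, chr4:3789903-3789944 (+): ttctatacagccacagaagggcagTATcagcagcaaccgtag
Fgr, chr4:133000302-133000343 (+): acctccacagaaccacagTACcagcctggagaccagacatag
Lck, chr4:129548798-129548839 (−): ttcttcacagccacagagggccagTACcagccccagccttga
Blk, chr14:63373392-63373433 (−): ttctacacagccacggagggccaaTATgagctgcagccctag
Src, chr2:157469920-157469961 (+): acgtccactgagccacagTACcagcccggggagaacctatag
Yes1, chr5:32684718-32684759 (+): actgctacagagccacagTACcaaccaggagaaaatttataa
Fyn, chr10:39563931-39563972 (+): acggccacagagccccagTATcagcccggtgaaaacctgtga
Csk, chr9:57627321-57627362 (−): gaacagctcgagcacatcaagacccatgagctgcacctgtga

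All coordinates are GRCm38. In *Lyn*, *Lck* and *Blk* the tyrosine is followed by 4 residues, and in *Fgr*, *Src*, *Yes1* and *Fyn* by 6 residues. Aligned at the tyrosine codon over 33 bases, pairs within a tail class were 75.8% to 81.8% identical and pairs of different classes 45.5% to 69.7%. *Csk*, which closes the others, has no tyrosine codon in this stretch, and its last tyrosine lies 34 residues before the end. The tail classes crossed the expression groups described below, since *Lyn* with the short tail and *Fgr* with the long tail both rose in TG skin, whereas *Fyn*, with the long tail, fell.

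The amino ends are shown for the kinases that changed and for *Src*, because fatty acids attached there hold the proteins at the membrane. Each line gives the first 10 codons with cysteine codons, possible sites of palmitate, in capitals.
Lyn, chr4:3738730-3738759 (+): atgggaTGTattaaatcaaaaaggaaagac
Fgr, chr4:132986163-132986192 (+): atgggcTGTgtgttcTGCaagaagttggag
Fyn, chr10:39511750-39511779 (+): atgggcTGTgtgcaaTGTaaggataaagaa
Src, chr2:157457085-157457114 (+): atgggcagcaacaagagcaagcccaaggac

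The second codon encodes glycine, the residue that carries myristate, in all 7 Src family members. *Lyn* and *Yes1* have 1 cysteine codon in this stretch, *Fgr*, *Fyn* and *Lck* have 2, and *Src* and *Blk* have none.

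Per kilobase of exon, the broadly expressed kinases and *Csk* were the most abundant members in WT skin. Their levels were 11.9 ± 0.216 CPM per kb for *Fyn*, 8.77 ± 0.220 for *Csk*, 8.16 ± 0.341 for *Yes1* and 7.37 ± 0.50 for *Src* (SD, n = 3 for all levels in this paragraph). *Lyn* was the highest leukocyte kinase, at 4.01 ± 0.214 CPM per kb, followed by *Ptprc* at 2.14 ± 0.178, *Lck* at 0.836 ± 0.152, *Fgr* at 0.806 ± 0.134 and *Blk* at 0.169 ± 0.0690. In this order *Yes1* and *Src*, and *Lck* and *Fgr*, had library values that overlapped. In TG skin *Csk*, at 9.55 ± 0.611 CPM per kb, and *Fyn*, at 9.31 ± 0.0610, headed the order with overlapping values, and *Fgr*, at 1.68 ± 0.251, stood above *Lck*, at 0.786 ± 0.210, with no overlap. Levels per length depend on the length used. With the longest transcript in place of all exons, *Ptprc*, whose exons of all transcripts together span 18313 bases, had 6.83 CPM per kb in WT and stood above *Lyn*, at 4.71 CPM per kb.

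**Figure D1:**
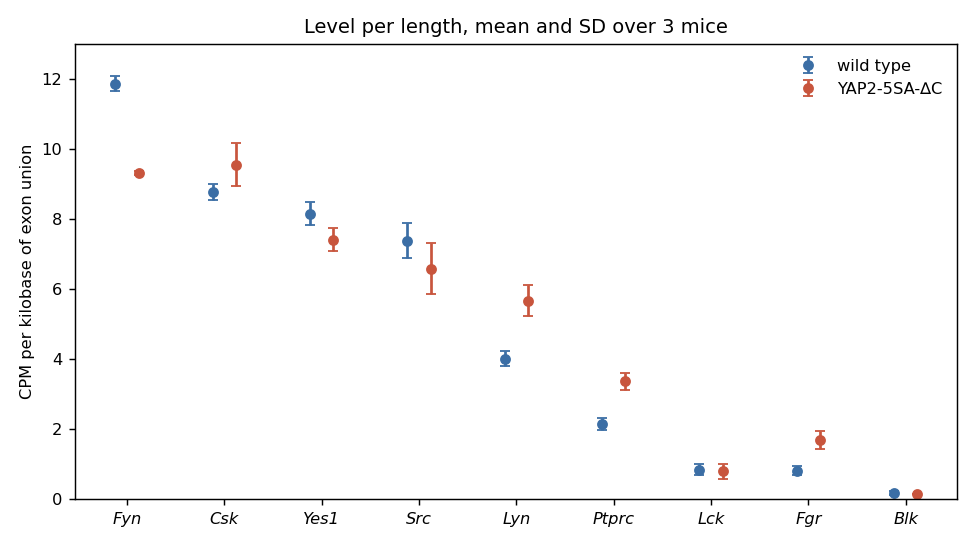
Level of the 9 genes in CPM per kilobase of the union of their exons (y axis, linear), ordered by the WT mean; points are means and bars SD over 3 mice, blue for WT and red for TG. *Fyn* was the highest gene in WT at 11.9 CPM per kb, and *Lyn*, *Fgr*, *Ptprc* and *Csk* had higher means in TG.

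Of the 8 members tested, 3 were higher in TG skin (*Lyn*, *Fgr* and *Ptprc*), 1 was lower (*Fyn*) and 4 did not pass the test (*Lck*, *Src*, *Yes1* and *Csk*). Over all genes tested, 1.44% were called higher and 0.464% lower. Each of the 8 had more than 1 CPM in all 6 libraries, so none was tested through the TG libraries alone. *Blk* was not tested. In *Lyn*, *Fgr*, *Ptprc* and *Csk* every TG library lay above every WT library, which holds for 15.5% of all genes tested, and in *Fyn* and *Yes1* every TG library lay below every WT library, which holds for 18.2%. Since those shares are large, a lack of overlap alone says little about a gene here.

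*Fgr*, a kinase of myeloid cells that works downstream of integrins and Fc receptors (ENSMUSG00000028874, chromosome 4, 132974095 to 133001910, plus strand), showed the largest change among the members. It had 2.86, 2.77 and 3.71 CPM in WT replicates 1 to 3 and 7.40, 5.47 and 6.62 CPM in TG replicates 1 to 3. All TG values were above all WT values, and the means were 3.11 ± 0.518 and 6.49 ± 0.969 CPM (SD, n = 3). The log2 fold change was 1.07 (SE 0.18, 95% interval 0.66 to 1.49, edgeR quasi-likelihood FDR = 0.0437). The values rest on 39 to 53 counts in WT and 93 to 133 counts in TG.

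*Lyn*, which in mast cells, B cells and myeloid cells both starts receptor signals and phosphorylates inhibitory receptors (ENSMUSG00000042228, chromosome 4, 3678115 to 3813122, plus strand), was also higher. Its WT libraries had 15.7, 15.9 and 17.3 CPM and its TG libraries 23.1, 21.2 and 24.9 CPM. The 2 groups were apart, with means of 16.3 ± 0.871 and 23.1 ± 1.83 CPM (SD, n = 3). Its log2 fold change was 0.50 (SE 0.09, 95% interval 0.29 to 0.71, edgeR quasi-likelihood FDR = 0.0457). *Lyn* shares 248 exon bases with the antisense gene *Gm26857*, which had 0 to 4 counts in a library against 182 or more for *Lyn*.

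*Ptprc*, whose product CD45 marks all nucleated blood cells (ENSMUSG00000026395, chromosome 1, 138062861 to 138175708, minus strand), had 38.3, 36.5 and 42.8 CPM in WT and 60.8, 57.7 and 66.5 CPM in TG. No WT library reached the lowest TG library. The log2 fold change of *Ptprc* was 0.65 (SE 0.09, 95% interval 0.45 to 0.86, edgeR quasi-likelihood FDR = 0.0340). *Lyn* and *Ptprc* thus had intervals that overlapped, and that of *Fgr* overlapped both.

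*Lck*, the kinase that acts with CD4 and CD8 at the T cell receptor (ENSMUSG00000000409, chromosome 4, 129548344 to 129573641, minus strand), showed no detectable change. It had 2.75, 1.94 and 2.66 CPM in WT and 2.39, 1.65 and 2.87 CPM in TG. The groups overlapped. Its log2 fold change was -0.08 (SE 0.25, edgeR quasi-likelihood FDR = 0.865), and its 95% interval, -0.68 to 0.52, still includes a change of the size seen in *Lyn*. Its sign turned in 2 of the fits that each leave out 1 library, to 0.03 without WT replicate 1 and to 0.13 without TG replicate 2.

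*Blk*, a kinase of B cells (ENSMUSG00000014453, chromosome 14, 63372836 to 63417037, minus strand), had 7, 6 and 7 counts in the WT libraries and 7, 7 and 6 in the TG libraries. It fell under the count filter, and no change could be detected at this depth.

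*Fyn*, which serves both T cells and adhesion and junction signalling in epithelia (ENSMUSG00000019843, chromosome 10, 39368855 to 39565381, plus strand), was the only member lower in TG by the test. The WT libraries had 51.4, 52.9 and 51.1 CPM and the TG libraries 40.9, 40.4 and 40.6 CPM. Libraries of a genotype lay close together and the genotypes were well apart, with means of 51.8 ± 0.943 and 40.6 ± 0.266 CPM (SD, n = 3). On the log2 scale *Fyn* differed by -0.35 (SE 0.05, 95% interval -0.48 to -0.22, edgeR quasi-likelihood FDR = 0.0401).

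The other broadly expressed kinases lay on the same side of 0 but did not pass the test. *Yes1*, the kinase after which the Yes-associated protein YAP is named (ENSMUSG00000014932, chromosome 5, 32611171 to 32687057, plus strand), had 64.2, 60.2 and 59.4 CPM in WT and 56.7, 52.8 and 57.3 CPM in TG. The groups did not overlap, yet the log2 fold change was only -0.14 (SE 0.06, 95% interval -0.29 to 0.01, edgeR quasi-likelihood FDR = 0.214). *Yes1* shares 635 exon bases with the opposite-strand gene *Gm10461*. *Src*, the founding member and a kinase of focal adhesions (ENSMUSG00000027646, chromosome 2, 157418444 to 157471862, plus strand), had 34.6, 30.2 and 31.9 CPM in WT and 30.3, 25.2 and 30.9 CPM in TG. Its groups overlapped, and the lowest value was that of TG replicate 2. The log2 fold change of *Src* was -0.16 (SE 0.10, 95% interval -0.40 to 0.07, edgeR quasi-likelihood FDR = 0.337).

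*Csk*, the kinase that phosphorylates the tail tyrosine (ENSMUSG00000032312, chromosome 9, 57626646 to 57653631, minus strand), had 32.5, 32.1 and 33.7 CPM in WT and 34.1, 38.3 and 34.6 CPM in TG. All TG values were above all WT values, but by little, and the gap to the nearest WT library was smallest in TG replicate 1. On the log2 scale the difference was 0.12 (SE 0.07, 95% interval -0.04 to 0.29, edgeR quasi-likelihood FDR = 0.306). Changes of protein level or of phosphorylation of any of these kinases were not measured.

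**Figure D2:**
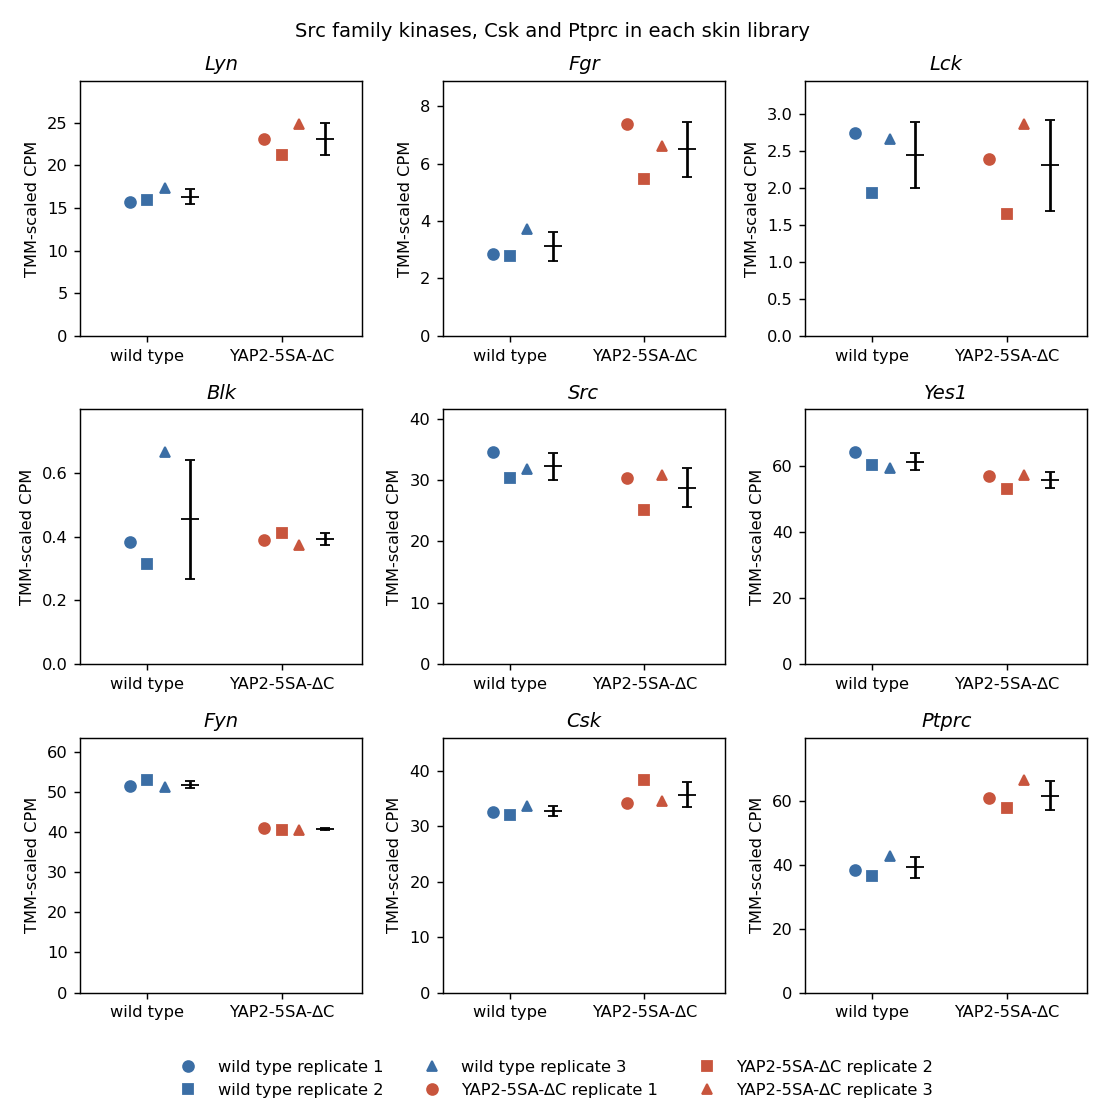
TMM-scaled CPM of each of the 9 genes in each library (y axis, linear from 0, own range per gene), WT in blue and TG in red, with replicates by symbol and the mean and SD over 3 mice in black. All TG libraries lay above all WT libraries for *Lyn*, *Fgr*, *Csk* and *Ptprc* and below them for *Fyn* and *Yes1*, and the genotypes overlapped for *Lck*, *Blk* and *Src*.

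In the quasi-likelihood test the 4 calls stood near the threshold. DESeq2 gave lower values, with an FDR of 6.4e-07 for *Ptprc*, 0.00081 for *Fgr*, 0.0034 for *Lyn* and 0.0049 for *Fyn*. The likelihood-ratio test gave 4.6e-05 for *Fgr*, 0.00055 for *Ptprc* and 0.0189 for *Lyn*. In the quasi-likelihood fits that leave out 1 library, all 4 genes stayed past the threshold without TG replicate 2, and none did without WT replicate 1, 2 or 3, TG replicate 1 or TG replicate 3, although their unadjusted p stayed below 0.05 each time. Among all genes tested, 2725 to 3841 had such a p in these fits. Over these 6 fits the log2 fold change ran from 0.99 to 1.21 for *Fgr*, from 0.44 to 0.57 for *Lyn*, from 0.60 to 0.73 for *Ptprc* and from -0.35 to -0.33 for *Fyn*, with FDR values of up to 0.186. *Fyn* also missed the threshold in the likelihood-ratio test (FDR = 0.0930) and without a count filter (FDR = 0.0511).

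Related kinases outside the 9 genes were measured in the same fit. *Ptk6*, an epithelial kinase also called Brk, had 17.7, 17.5 and 18.1 CPM in WT and 23.0, 27.1 and 22.0 CPM in TG, with a log2 fold change of 0.44 (SE 0.09, FDR = 0.0596). *Srms*, a relative of *Ptk6*, had 19.5, 21.9 and 20.3 CPM in WT and 12.5, 4.24 and 13.1 CPM in TG. Its lowest value was in TG replicate 2, the library with the lowest hair shaft keratins, and its log2 fold change was -1.05 (SE 0.37, FDR = 0.136). *Frk*, an epithelial kinase, differed by 0.13 on the log2 scale (SE 0.09, FDR = 0.392). None of these 3 kinases passed edgeR's quasi-likelihood test, 2 of them had an unadjusted p under 0.05, and the part of hair shaft content in the value of *Srms* was not tested.

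**Figure D3:**
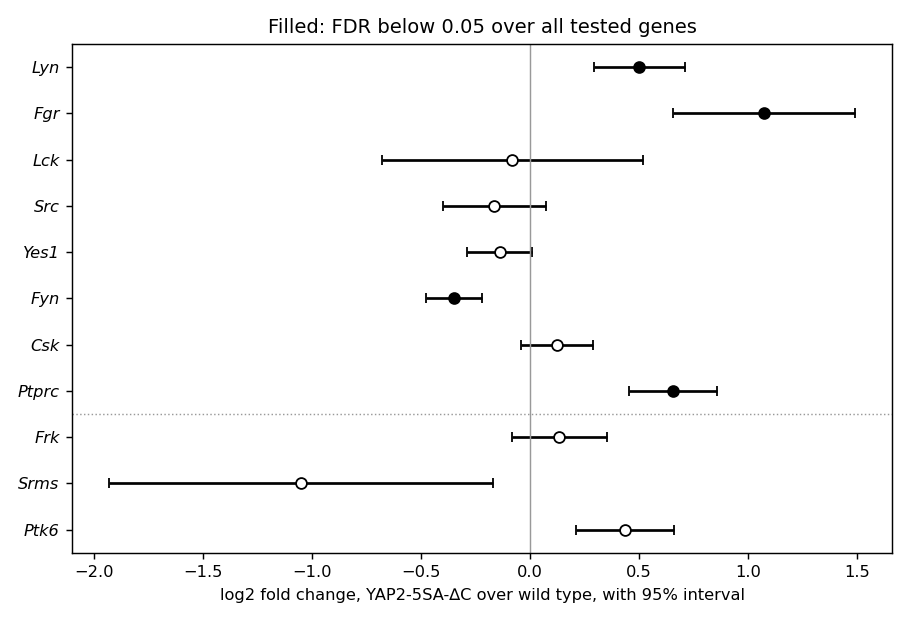
Log2 fold change of TG over WT (x axis) with 95% intervals for the 8 members tested and, under the dotted line, 3 related kinases; filled points have a quasi-likelihood FDR below 0.05. Filled points are *Lyn*, *Fgr* and *Ptprc*, above 0, and *Fyn*, below 0.

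Within a library, the ratio of counts of 2 groups of genes needs no scaling between libraries. Counts on *Lyn*, *Fgr*, *Lck* and *Blk* were 12.6%, 12.7% and 14.6% of all counts on the 7 Src family members in the WT libraries, and 20.6%, 19.5% and 21.3% in the TG libraries. The shares did not overlap and had means of 13.3% ± 1.11 and 20.5% ± 0.868 (SD, n = 3), a difference of 7.15 percentage points. In sum, the leukocyte kinases had 20.9 to 24.4 CPM in WT and 28.8 to 34.8 CPM in TG, and the broadly expressed kinases 142 to 150 CPM in WT and 118 to 129 CPM in TG. Most counts on the leukocyte kinases were those of *Lyn*, with 286 of 395, 304 of 400 and 182 of 256 in WT. In TG it had 415 of 598, 361 of 489 and 399 of 557. The share also depends on the broadly expressed kinases, of which *Fyn* was lower in TG. Without any 1 library the difference in share stayed between 6.76 and 7.79 percentage points.

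The leukocyte kinases were also set against *Ptprc* in the same library. *Lyn* counts were 41.1%, 43.6% and 40.4% of *Ptprc* counts in WT and 38.0%, 36.8% and 37.5% in TG, a difference of -0.16 in the mean log2 ratio. *Fgr* counts were 7.47%, 7.60% and 8.67% of *Ptprc* counts in WT and 12.2%, 9.48% and 9.95% in TG, a difference of 0.41. *Lck* counts were 7.18%, 5.31% and 6.22% of *Ptprc* counts in WT and 3.93%, 2.85% and 4.32% in TG, a difference of -0.76. None of the 3 ratios overlapped between genotypes. Because *Ptprc* itself was higher in TG, the median gene had a difference of -0.67 in this ratio, and 77.8% of the other 15101 genes tested had every TG ratio below every WT ratio. The lower ratios of *Lck* and *Lyn* are therefore no result about these genes, and that of *Lck* lay near the median gene. Every TG ratio lay above every WT ratio, as for *Fgr*, in 0.768% of genes. These ratios are descriptions, and the ratio of *Lck* rests on 28 to 50 counts of *Lck* in a library.

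**Figure D4:**
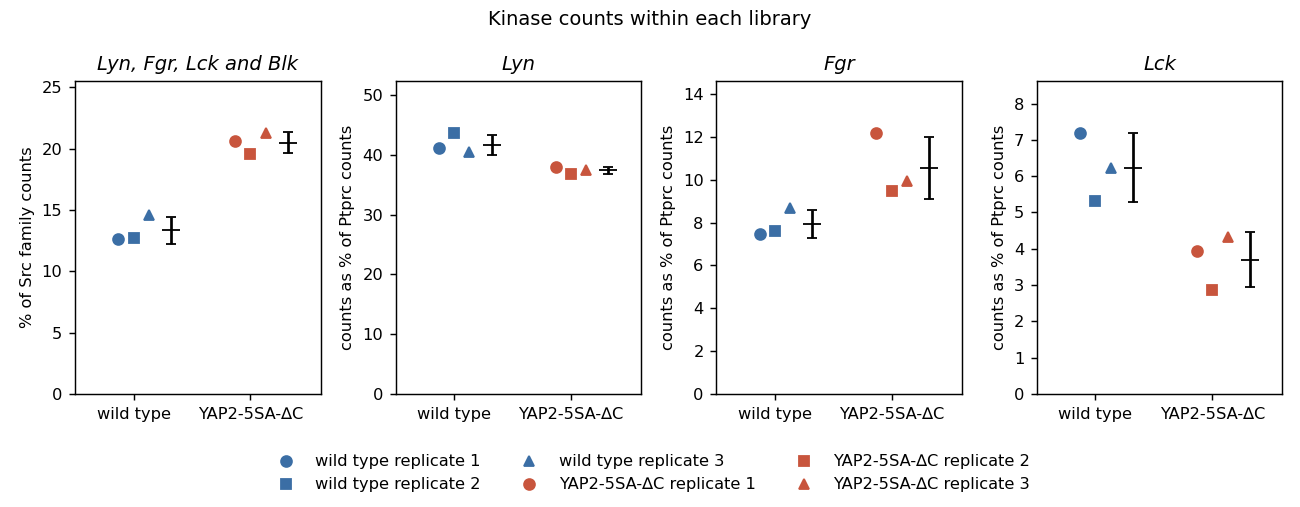
Ratios within each library on linear axes from 0: counts on the 4 leukocyte kinases as a percentage of all Src family counts (left), and counts of *Lyn*, *Fgr* and *Lck* as a percentage of *Ptprc* counts; black marks give the mean and SD over 3 mice. The leukocyte share was 13.3% in WT and 20.5% in TG, and relative to *Ptprc*, which was itself higher in TG, the TG libraries were higher for *Fgr* and lower for *Lyn* and *Lck*.

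Leukocyte marker genes were called in 4 of the 7 leukocyte lists, with at most 2 genes in a list. Of all genes tested, 1.44% were called higher. The summed level of 8 macrophage genes was 496 to 604 CPM in WT and 722 to 809 CPM in TG, and 2 of the 8 were called higher, with the lowest p for the mannose receptor gene *Mrc1* (log2 fold change 0.54, FDR = 0.0341). For mast cells, 2 of 5 genes tested were called higher, led by the histidine decarboxylase gene *Hdc* (1.45, FDR = 0.0300), and the sum was 130 to 144 CPM in WT and 181 to 235 CPM in TG. For dendritic and Langerhans cells, 2 of 7 tested were higher, led by the integrin gene *Itgax* (0.82, FDR = 0.0401), with sums of 194 to 247 CPM and 305 to 374 CPM. Every TG sum lay above every WT sum in these 3 lists, and likewise in the neutrophil, T cell, natural killer cell, basal and suprabasal keratinocyte and endothelial lists (for the last, 92.7 to 104 CPM in WT and 107 to 123 CPM in TG). In the hair shaft and melanocyte lists every TG sum lay below every WT sum. Among single genes tested, 15.5% lay wholly above and 18.2% wholly below, and no such share was computed for sums.

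For neutrophils, the sum was 8.91 to 13.3 CPM in WT and 20.8 to 29.9 CPM in TG, but it came almost wholly from the receptor genes *Cxcr2* and *Csf3r*. *Cxcr2* was the 1 gene called of 2 tested (log2 fold change 1.05, FDR = 0.0401). The granule genes *Mpo*, *Elane* and *Ltf* were at or near 0 in all libraries, and *Ly6g* had no row. T cell genes summed to 8.69 to 10.3 CPM in WT and 10.96 to 14.4 CPM in TG, with 0 of 3 tested called by edgeR's quasi-likelihood test and 2 with an unadjusted p under 0.05, of which *Cd2* reached the count filter only through the TG libraries. Natural killer cell genes summed to 1.71 to 2.09 CPM and 3.11 to 4.06 CPM, with 0 of 2 called and 1 with an unadjusted p under 0.05. This gene, *Klrd1*, also reached the filter only through the TG libraries. B cell genes summed to 14.2 to 20.2 CPM in WT and 16.5 to 18.7 CPM in TG, nearly all of it *Ighm*, and the defining genes *Ms4a1* and *Pax5* were at or near 0. The part of these cells in the values of *Lyn*, *Fgr* and *Ptprc* was not tested.

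Markers of other skin compartments were counted in the same way. Of all 15102 genes tested, 1.44% were called higher and 0.464% lower, and 3968 had an unadjusted p under 0.05. Basal keratinocyte genes summed to 3315 to 3921 CPM in WT and 5406 to 6987 CPM in TG, with *Krt14* called higher as 1 of 6 (log2 fold change 0.95, FDR = 0.0300). Suprabasal genes summed to 4294 to 5129 CPM and 5356 to 9595 CPM, with 0 of 5 called and 1 with an unadjusted p under 0.05. Of 4 melanocyte genes 2 were called lower, with sums of 388 to 458 CPM in WT and 147 to 250 CPM in TG, led by *Dct* (-0.80, FDR = 0.0467). No gene of the hair shaft (4 tested, 4 with an unadjusted p under 0.05), fibroblast (6 and 3), endothelial (6 and 2), adipocyte (4 and 0) or skeletal muscle (4 and 0) lists was called by edgeR's quasi-likelihood test. Skeletal muscle sums varied between mice, from 907 to 4864 CPM in WT and 820 to 2335 CPM in TG. *Fyn* fell while the basal keratinocyte sum was higher and the hair shaft sum lower, and the part of either in the value of *Fyn* was not tested.

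The genes that act around Src family kinases were counted in 6 lists that together hold 80 genes. Of the 70 tested, 9 (12.9%) were called, against 1.91% of all genes, and all 9 were higher in TG. By the likelihood-ratio test it was 21 of 70, 1 of them lower, against 10.4% of all genes, and by DESeq2 19 of 70, 2 of them lower, against 10.5%. None of these genes was called in the quasi-likelihood fits without WT replicate 2, WT replicate 3, TG replicate 1 or TG replicate 3, and 86 genes were still called in all without TG replicate 1. Over the lists, 30 to 37 had an unadjusted p under 0.05 in 3 of those fits and 29 in that without TG replicate 3. Among all genes tested in the same fits, in the order named, it was 2725 of 14981, 2844 of 14999, 3674 of 14914 and 3692 of 14925. The median log2 fold change was 0.26, against -0.01 over all genes tested. It was 0.25 without *Lair1* and *Skap1*, which reached the count filter only through the TG libraries. These counts describe the lists and are no test of them.

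Among effectors used by leukocyte Src family kinases, 5 of 18 tested were higher and 13 did not pass. The median log2 fold change was 0.50 without *Skap1*, which reached the count filter only through the TG libraries. *Vav1*, a signalling protein of blood cells that acts below antigen receptors, had 6.05, 5.76 and 5.33 CPM in WT and 10.1, 10.2 and 10.6 CPM in TG, apart in all libraries (log2 fold change 0.84, SE 0.10, FDR = 0.0300). *Inpp5d*, the inositol phosphatase SHIP that phosphorylated inhibitory receptors recruit, had 18.1, 14.8 and 16.8 CPM in WT and 26.4, 25.4 and 28.6 CPM in TG (0.69, SE 0.10, FDR = 0.0398). *Pik3cd*, the leukocyte catalytic subunit of phosphoinositide kinase, rose by 0.57 (SE 0.10, FDR = 0.0437). The other genes called were the adaptor genes *Lcp2* (0.68, FDR = 0.0437) and *Fyb* (0.65, FDR = 0.0457). *Syk*, the kinase that follows *Lyn* at Fc receptors, differed by 0.18 (FDR = 0.295).

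All 7 genes tested of the chains and coreceptors with activating motifs (ITAM) had a log2 fold change above 0, with a median of 0.61, but 1 was called. This was *Tyrobp*, the adaptor DAP12 of myeloid and natural killer cells, with 11.7, 13.3 and 13.6 CPM in WT and 22.9, 20.7 and 24.0 CPM in TG (0.81, SE 0.10, FDR = 0.0300). *Ms4a2* (0.91, FDR = 0.0576) and *Fcer1g* (0.63, FDR = 0.0608), which encode chains of the IgE receptor that signals through *Lyn*, were next and did not pass. Of 9 receptors tested with inhibitory motifs (ITIM) 1 was called. *Lair1* was under 1 CPM in every WT library before TMM scaling and was tested only through TG, and the other 8 lay above 0 with a median of 0.61. *Pirb*, an inhibitory receptor of myeloid and B cells that *Lyn* phosphorylates, had 16.3, 20.8 and 18.0 CPM in WT and 31.7, 26.9 and 28.8 CPM in TG (0.66, SE 0.11, FDR = 0.0437). The values were 0.71 for *Fcgr2b* (FDR = 0.0511) and 0.67 for *Cd33* (FDR = 0.0620).

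Of the genes that act on the tail tyrosine or damp the signal, 2 of 15 tested were higher and 13 did not pass, with a median log2 fold change of 0.26. *Ptpn6*, the phosphatase SHP-1 recruited by inhibitory receptors, had 19.2, 16.4 and 17.5 CPM in WT and 24.4, 25.3 and 24.3 CPM in TG (0.48, SE 0.08, FDR = 0.0442). *Sla*, an adaptor that limits antigen receptor signals, had 6.65, 6.28 and 6.95 CPM in WT and 9.40, 9.71 and 9.80 CPM in TG (0.54, SE 0.10, FDR = 0.0456). *Ptpn22*, a lymphoid phosphatase that works with *Csk*, gave 0.75 (FDR = 0.0635). *Matk*, the relative of *Csk*, gave 0.91 (FDR = 0.0657), and *Pag1*, the membrane anchor of *Csk*, gave -0.53 (FDR = 0.106). These last 2 were chosen after their values were seen.

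None of the 18 adhesion and growth factor effectors, which include focal adhesion proteins and adaptors used by *Src*, *Yes1* and *Fyn*, was called by edgeR's quasi-likelihood test. Of these 4 had an unadjusted p under 0.05, and the median log2 fold change was 0.06. *Stat3*, a transcription factor that Src kinases can phosphorylate, came nearest at 0.51 (FDR = 0.0541). It was followed by *Pxn*, the focal adhesion protein paxillin, at -0.22 (FDR = 0.127) and by *Arhgap35* at -0.14 (FDR = 0.154).

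**Figure D5:**
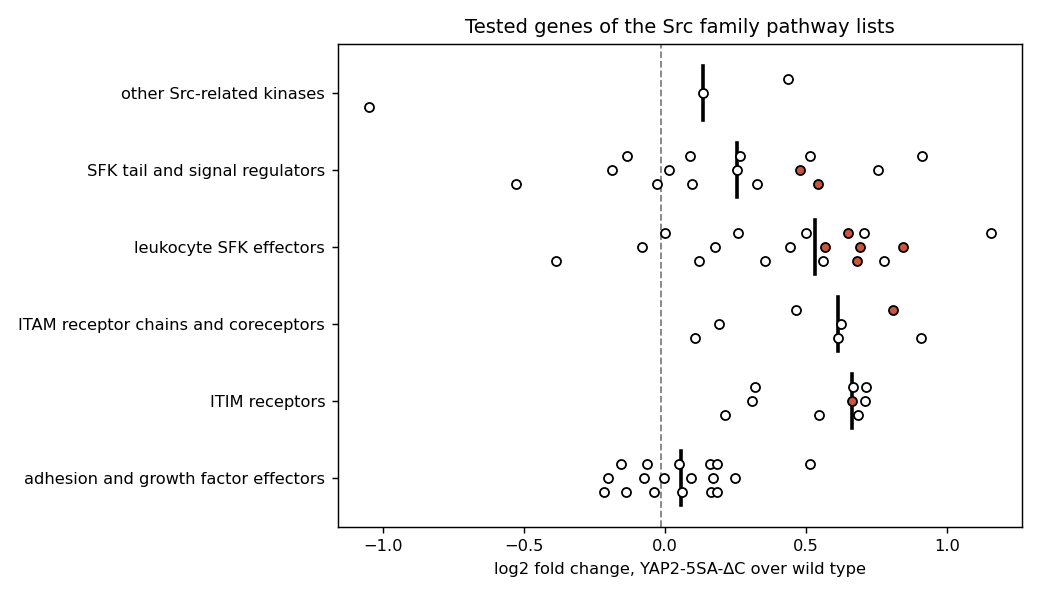
Log2 fold change of TG over WT (x axis) for the 70 tested genes of 6 lists around the Src family kinases (SFK), 1 point per gene, filled where the quasi-likelihood FDR was below 0.05; black bars are list medians over all genes shown and the dashed line the median of all genes tested. The 9 filled points lie in the tail regulator, leukocyte effector, ITAM and ITIM lists, and the adhesion list has none.

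The 250 bases before the start site were read for the members in the RefSeq table (GRCm38.p6), all but *Lyn* and *Blk*, because *Fgr* and *Ptprc* moved in the same direction. The *Fgr* window and the 1 of 2 *Ptprc* windows that holds a match are given 5′ to 3′ on the gene's strand, with matches to GAGGAA, letters bound by the myeloid and B cell factor PU.1, in capitals on either strand.
Fgr, chr4:132973845-132974094 (+): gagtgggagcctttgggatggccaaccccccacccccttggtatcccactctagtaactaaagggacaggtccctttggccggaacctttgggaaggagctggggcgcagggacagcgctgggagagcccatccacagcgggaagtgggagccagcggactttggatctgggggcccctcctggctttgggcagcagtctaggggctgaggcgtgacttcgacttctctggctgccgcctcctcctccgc
Ptprc, chr1:138175306-138175555 (−): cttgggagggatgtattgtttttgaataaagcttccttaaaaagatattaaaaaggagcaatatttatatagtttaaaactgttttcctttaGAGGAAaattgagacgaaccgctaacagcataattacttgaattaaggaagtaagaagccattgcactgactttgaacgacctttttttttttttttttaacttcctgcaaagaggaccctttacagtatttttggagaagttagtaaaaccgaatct

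GAGGAA was found on either strand in 23.3% of the 32851 promoter windows of this length. It lay 158 bases before the start in the *Ptprc* window shown but not in the other *Ptprc* window, and also in the *Src* window, in both *Csk* windows and in 1 of 2 *Lck* windows, but not in those of *Fgr*, *Fyn* or *Yes1*. GGAATG, letters bound by TEAD factors, the DNA-binding partners of YAP, was found on either strand in 12.6% of all windows. Among the members it was in both *Lck* windows and in no window of *Csk*, *Fgr*, *Fyn*, *Ptprc*, *Src* or *Yes1*. The 2 sets of letters can share the bases GGAA. A match is a description of these letters, and no match says only that they are not in this window.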

How the data were processed

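RNA-Seq of dorsal neck skin from 3 WT and 3 TG mice was analysed from the table of raw read counts per Ensembl gene that the authors deposited. Per the labels, read pairs were mapped by the authors against GRCm38 using TopHat2 2.0.12 and Bowtie2 2.1.0, and HTSeq counted uniquely mapped reads, so reads shared by near-identical genes are missing. The strand setting and annotation release are not given in the sources used here, so reads of a gene and of an overlapping antisense gene may not be separated. The labels name a total RNA kit and the methods mRNA libraries, and the methods give an earlier version of TopHat2 than the labels. All columns belonged to a sample, and 558 identifiers had no name in GENCODE M21.

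Genes reaching 1 CPM in 3 or more libraries were kept, and TMM scaling and the quasi-likelihood test of edgeR 4.0.16 (R 4.3.3) were applied with genotype as the only term. The SE was the log2 fold change divided by the square root of F. The likelihood-ratio test of edgeR, voom of limma 3.58.1, DESeq2 1.42.0, upper-quartile and RLE scaling, 2 other filters on counts, a replicate block and fits without each library were alternatives, and the test was checked on simulated data. Libraries of the same genotype differed by more than sampling noise, so none was a duplicate of another in its genotype. Libraries of different genotypes were not compared in this way. Coding ends came from the principal consensus coding transcript of each gene. The members and lists were chosen with earlier results of these data known. Named were the members, 3 related kinases (another is not reported here), in each other list the 3 genes with the lowest p, genes counted as called, and the called marker with the lowest p in each list. *Syk*, *Csf3r* and *Ighm* were added after their values were seen.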

Additional observations from a re-analysis of the deposited data

How the results depend on the processing

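In the 8 other settings that keep all libraries, each of the 8 members tested kept the sign of its log2 fold change. *Lyn*, *Fgr* and *Ptprc* passed the threshold in 7 of 8 and *Fyn* in 5 of 8. The number of genes called over the whole table was 288, and became 497 without a count filter, 1568 by the likelihood-ratio test and 1590 by DESeq2 (959 higher and 631 lower). For the pathway lists it was 9, and became 21 by the likelihood-ratio test and 19 by DESeq2. *Fyn* had a log2 fold change of -0.34 without a count filter and -0.35 by the likelihood-ratio test, both above the FDR threshold. The causes were not tested.

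The labels number the mice 1 to 3 in each genotype. Deviations of same-numbered libraries from their genotype mean correlated at -0.33 to -0.05 over the genes tested. With 3 libraries in a genotype these deviations sum to 0, so the correlations cannot decide whether the numbers pair the mice. With the replicate block, edgeR's quasi-likelihood test called 0 genes in all (2949 with an unadjusted p under 0.05), 0 members (4) and 0 pathway genes (32), with log2 fold changes of 0.50 for *Lyn*, 1.06 for *Fgr*, -0.35 for *Fyn* and 0.65 for *Ptprc*.

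In fits without 1 library, 0 to 816 genes were called in all, 0 to 4 members and 0 to 12 pathway genes. No gene was called without WT replicate 2, WT replicate 3 or TG replicate 3, and the unadjusted p was under 0.05 in 2725, 2844 and 3692 genes. Without WT replicate 1 the count was 142, without TG replicate 1 it was 86, and without TG replicate 2 it was 816. Pathway genes called were 4 without WT replicate 1 and 0 without WT replicate 2, WT replicate 3, TG replicate 1 or TG replicate 3. The log2 fold change ran from 0.44 to 0.57 for *Lyn*, 0.99 to 1.21 for *Fgr*, -0.26 to 0.13 for *Lck*, -0.22 to -0.06 for *Src*, -0.16 to -0.09 for *Yes1*, -0.35 to -0.33 for *Fyn*, 0.09 to 0.17 for *Csk* and 0.60 to 0.73 for *Ptprc*. The fits without a library for shares and for ratios to *Ptprc* were chosen after seeing the data. The difference in log2 ratio to *Ptprc* ran from -0.18 to -0.12 for *Lyn*, 0.30 to 0.48 for *Fgr* and -0.89 to -0.59 for *Lck*.

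With the longest transcript as the length, WT levels in CPM per kb were 4.71 for *Lyn*, 1.12 for *Lck*, 8.25 for *Src*, 13.4 for *Yes1*, 14.5 for *Fyn*, 11.9 for *Csk* and 6.83 for *Ptprc*. As CPM per kilobase, the leukocyte share was 17.5% in WT and 26.2% in TG. Depth limited *Blk* and *Lck* most, with 6 to 7 and 28 to 50 counts in a library.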
